A study of Homo sapiens with 4 samples.

Results

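The genes described here are 48 members of the unfolded protein response and the integrated stress response, picked by name from the 60675 genes in the count tables. They were sorted by role into 7 stress sensors, 22 genes of the ATF4 branch and 19 genes of the ATF6/XBP1 branch, which holds the chaperones of the endoplasmic reticulum (ER) and its degradation machinery. All 48 were found by symbol and all 48 had enough counts to be tested. The levels came from RNA-seq of LNCaP, an androgen-responsive human prostate cancer cell line. Cells were held in phenol red-free medium with hormone-depleted serum and treated for 72 h. Of the 4 cultures, 2 received 1 nM R1881, a synthetic androgen, with the DMSO vehicle, and 2 received 1 nM R1881 with 50 µM CPI-455, an inhibitor of the KDM5 demethylases that remove methyl groups from histone H3 lysine 4. R1881 was present in both groups, so no culture shows these genes without androgen, and a single cell line was profiled at a single time and dose.

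Secretory cells such as the luminal prostate epithelium fold much of their protein in the ER. When unfolded protein builds up there, the membrane sensors PERK (EIF2AK3), IRE1α (ERN1) and ATF6 are activated. PERK and its sister kinases HRI (EIF2AK1), PKR (EIF2AK2) and GCN2 (EIF2AK4) phosphorylate the translation factor eIF2α, which lowers protein synthesis in general while the mRNA of ATF4 is translated more, and ATF4 then turns on genes of amino acid supply, redox balance and feedback. ATF6 is cut to release a transcription factor and IRE1α splices the XBP1 mRNA, and these factors turn on chaperones and ER-associated degradation (ERAD). Phosphorylation, cleavage and splicing were not measured here: the counts give only a total over the annotated exons of each gene. Fragments from introns retained in an annotated transcript are not separated from those of spliced mRNA. Their part in the levels and ratios below was not tested.

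The libraries held 19623553 and 20690819 counted fragments with vehicle and 9522920 and 5401588 in the CPI-455 libraries, so levels are compared as CPM. CPM are counts per 1000000 fragments with edgeR's scaling of the libraries. By library totals, without that scaling, 3 fragments corresponded to 0.145 to 0.555 per 1000000. The long non-coding RNA MALAT1 took 0.0884% to 0.114% of fragments with vehicle and 4.95% to 6.49% with CPI-455, and mitochondrial genes 1.91% to 2.43% and 0.967% to 1.24%. The 8 luminal prostate markers reported here were counted in every library, and with CPI-455 KLK3, FOLH1, HOXB13 and KRT8 fell, none rose and 4 were not called (log2 fold changes of 0.56 for KLK2, 0.33 for EPCAM, -0.43 for KRT18 and -0.66 for TMPRSS2). Of 12 markers of basal, stromal, endothelial, neuroendocrine and blood cells, 2 and 3 were at 0 with vehicle against 5 and 6 with CPI-455. The basal keratin KRT5 was at 0 in all 4 libraries. The 12 markers summed to 29.9 to 36.9 per 1000000 fragments with vehicle against 27.4 to 29.4 with CPI-455, by library totals without edgeR's scaling. Depth and these shares moved with the treatment, and their part in the results below was not tested.

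The branches also differ in the DNA elements recorded upstream of their genes, shown here because the comparison below is between branches. ATF4 with a C/EBP partner binds the C/EBP-ATF response element (CARE, searched as TGATGNAA), and ATF6 and XBP1 bind the ER stress response elements ERSE (CCAAT and CCACG, 9 bases apart) and ERSE-II (ATTGG and CCACG, 1 base apart) and the unfolded protein response element (UPRE), of which the core TGACGTGG was searched. All motifs were searched on both strands in RefSeq promoter windows (GRCh38.p14) of 300 bases, from 250 before to 50 after the start site, and 41 of the 48 genes had a window. NUPR1, EIF2AK1, PDIA3, DERL1, SHMT2, PSPH and DERL3 had none. CARE was found for 6 of 19 ATF4-branch genes with a window, for 1 of 16 of the ATF6/XBP1 branch and for 0 of 6 sensors, against 4.46% of the 27305 genes with a window (3.62% of all 35116 windows). An ERSE was found for 7 of the 16 ATF6/XBP1-branch genes and an ERSE-II for 3 others, against 0.0916% and 0.0696% of all genes. Neither was found for any of the 19 genes of the ATF4 branch. The branches were drawn up around the factors that bind these elements, so the shares are a description and not a test. The UPRE core, present for 0.927% of genes, was found for HYOU1 alone. Windows of 6 genes whose levels are described below are printed on the strand of the gene, with the matches in capitals: CARE in ATF3, ASNS and CHAC1, a CARE followed by an ERSE-II in HERPUD1, an ERSE in HSPA5, and 2 ERSE-II elements in HYOU1, the first of which overlaps the UPRE core. The windows lie at chr1:212565157-212565456 (ATF3, plus strand), chr7:97872359-97872658 (ASNS, minus strand), chr15:40953221-40953520 (CHAC1, plus strand), chr16:56931892-56932191 (HERPUD1, plus strand), chr9:125241294-125241593 (HSPA5, minus strand) and chr11:119057156-119057455 (HYOU1, minus strand).
ATF3: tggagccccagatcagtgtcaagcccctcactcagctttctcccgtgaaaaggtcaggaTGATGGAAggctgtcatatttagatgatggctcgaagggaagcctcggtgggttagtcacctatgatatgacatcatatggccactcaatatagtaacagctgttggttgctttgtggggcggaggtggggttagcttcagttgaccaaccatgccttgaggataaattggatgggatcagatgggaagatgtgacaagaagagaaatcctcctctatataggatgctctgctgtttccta
ASNS: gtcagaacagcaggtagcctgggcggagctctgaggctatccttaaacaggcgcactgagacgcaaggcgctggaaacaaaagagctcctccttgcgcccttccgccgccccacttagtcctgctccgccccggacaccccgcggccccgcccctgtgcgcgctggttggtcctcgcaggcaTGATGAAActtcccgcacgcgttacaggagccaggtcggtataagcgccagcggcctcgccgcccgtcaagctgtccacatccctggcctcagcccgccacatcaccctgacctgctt
CHAC1: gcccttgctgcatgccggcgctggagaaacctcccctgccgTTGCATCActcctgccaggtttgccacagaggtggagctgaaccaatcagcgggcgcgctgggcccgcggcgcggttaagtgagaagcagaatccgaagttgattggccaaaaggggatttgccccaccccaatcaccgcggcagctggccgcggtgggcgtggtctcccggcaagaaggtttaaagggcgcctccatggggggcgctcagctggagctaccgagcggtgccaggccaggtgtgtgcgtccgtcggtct
HERPUD1: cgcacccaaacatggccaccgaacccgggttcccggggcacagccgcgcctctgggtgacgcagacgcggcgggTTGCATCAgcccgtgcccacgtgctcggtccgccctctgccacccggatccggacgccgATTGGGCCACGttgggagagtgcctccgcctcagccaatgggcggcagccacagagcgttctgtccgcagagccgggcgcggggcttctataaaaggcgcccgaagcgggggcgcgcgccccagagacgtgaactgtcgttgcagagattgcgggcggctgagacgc
HSPA5: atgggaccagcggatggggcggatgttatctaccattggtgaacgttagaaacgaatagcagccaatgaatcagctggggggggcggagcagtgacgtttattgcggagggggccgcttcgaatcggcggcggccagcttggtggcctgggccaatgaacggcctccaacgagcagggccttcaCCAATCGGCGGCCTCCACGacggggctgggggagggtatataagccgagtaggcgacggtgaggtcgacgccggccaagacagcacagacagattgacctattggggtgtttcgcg
HYOU1: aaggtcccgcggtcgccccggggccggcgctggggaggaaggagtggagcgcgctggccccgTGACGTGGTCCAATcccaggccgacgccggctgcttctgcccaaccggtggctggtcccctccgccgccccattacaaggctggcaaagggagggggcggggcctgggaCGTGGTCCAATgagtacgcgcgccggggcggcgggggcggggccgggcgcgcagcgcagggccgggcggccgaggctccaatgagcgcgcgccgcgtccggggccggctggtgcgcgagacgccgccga

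With CPI-455 treatment 6 of the 48 genes rose, 21 fell and 21 were not called. A gene was called changed at a false discovery rate (FDR, Benjamini-Hochberg) below 0.05 in edgeR's quasi-likelihood test together with a difference of at least 2-fold, and log2 fold changes are given as CPI-455 over vehicle. By the same rule 21.0% of the 17600 genes tested rose and 21.3% fell, and among the 13813 protein-coding genes tested 15.6% rose and 24.4% fell, so the shares among the 48 genes were 12.5% and 43.75%. At the FDR alone, without the 2-fold minimum, 11 of the 48 were higher and 32 lower, against 29.8% and 32.8% of all genes tested and 26.3% and 38.7% of protein-coding genes. The median log2 fold change was -0.75 for the 48 genes, -0.04 for all genes tested and -0.21 for protein-coding genes. The levels in the CPI-455 libraries did not overlap those with vehicle for 45 of the 48 genes, a separation also seen for 81.9% of all genes tested and 83.2% of protein-coding genes. The 6 that rose were the transcription factors DDIT3 and ATF3, the ERAD gene DERL3, the sensor ATF6B, the asparagine synthetase ASNS and the phosphatase subunit PPP1R15A. When a trend with the length and GC content of exons was taken out, 8 of the 48 were called higher and 14 lower, which raised the share of higher genes among those called from 22.2% to 36.4%, while over all genes tested that share went from 49.6% to 53.9%. Exon length and GC content moved with the calls: the median GC content was 53.2% for genes that rose and 45.1% for genes that fell, against 54.0% and 46.2% for protein-coding genes called higher and lower, and the part of base composition in the calls was not tested further. Nothing in the labels says how separate the cultures of a group were beyond being biological replicates. The p-values weigh each group difference against a spread between these 4 libraries, estimated with information from all genes tested.

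**Figure D1:**
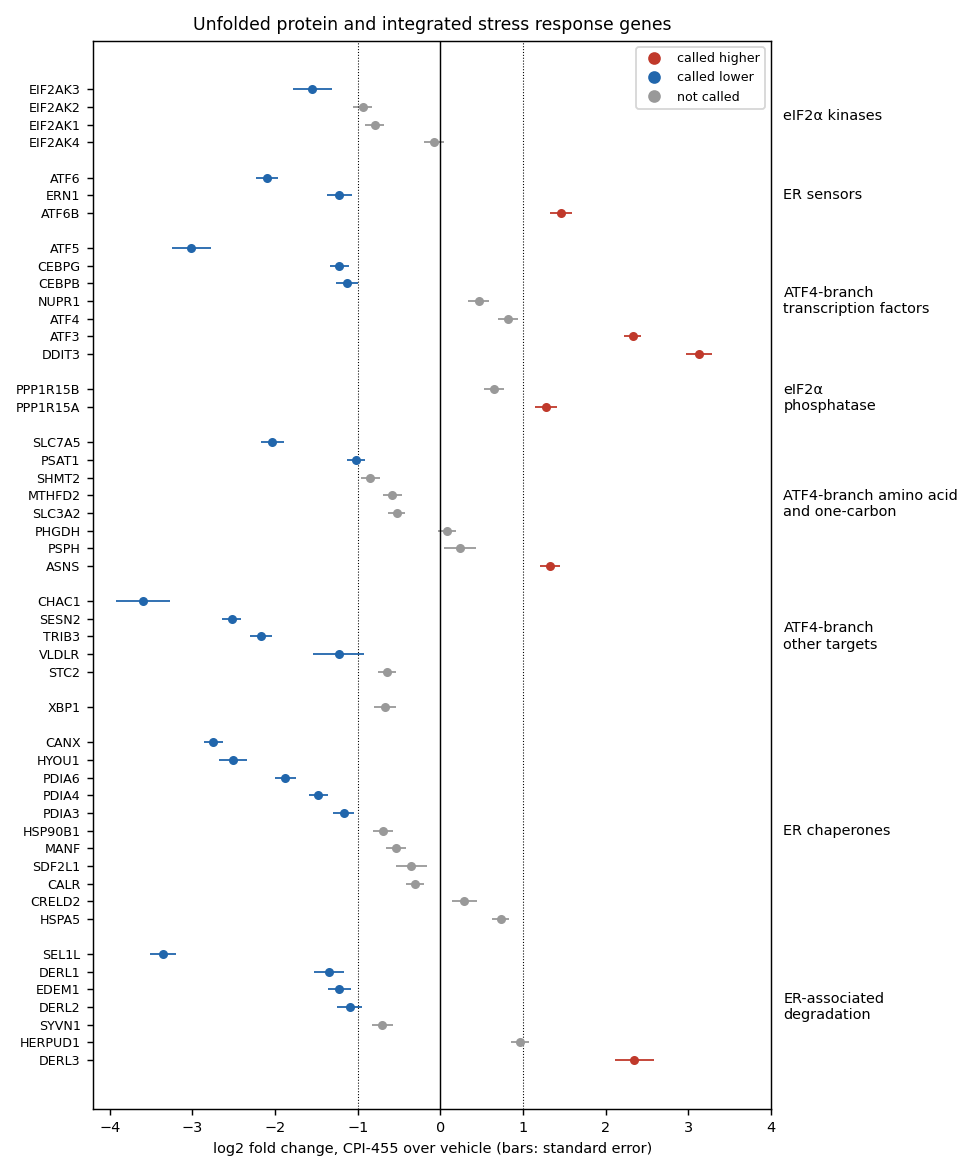
Log2 fold change (CPI-455 over vehicle, with its standard error) of the 48 genes, grouped by role, with dotted lines at the 2-fold minimum. The points run from -3.60 (CHAC1) to 3.13 (DDIT3), with 6 called higher, 21 called lower and 21 not called.

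Among the sensors, the mRNAs of ATF6, ERN1 and EIF2AK3, which encode the principal ER stress sensors, fell with CPI-455, and that of ATF6B rose. ATF6, on chr1:161766294-161964070, had 3337 and 4012 fragments with vehicle and 341 and 211 in the CPI-455 libraries, or 170 ± 18.1 CPM against 40.0 ± 2.46 CPM (SD, n = 2 in each group, as for every mean given here). It fell 4.28-fold, a log2 fold change of -2.10 with a standard error (SE) of 0.14 and an FDR of 2.41e-06. ATF6B encodes a related membrane-bound factor that is cut in the same way, and its gene lies on chr6:32098176-32128253. Its 1253 and 1363 fragments with vehicle, and 1631 and 754 under CPI-455, corresponded to 60.7 ± 2.18 CPM and 166 ± 23.9 CPM, a 2.74-fold rise (log2 fold change 1.46, SE 0.13, FDR 1.58e-05). Both libraries of each group lay on the same side for both genes, without overlap. Divided by exon length in kilobases (RPKM, a level per length), ATF6B mRNA was at 0.809 and 0.732 times the level of ATF6 mRNA with vehicle against at 10.3 and 7.70 times with CPI-455.

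ERN1 had 1159 and 1273 fragments with vehicle and 216 and 122 in the CPI-455 libraries, and fell from 56.4 ± 2.41 CPM to 24.2 ± 0.0699 CPM (log2 fold change -1.22, SE 0.15, FDR 8.73e-05). The call was not made with the length and GC trend removed, where the log2 fold change was -0.97. The eIF2α kinases were counted at different levels and moved unequally. EIF2AK3 had 670 and 665 fragments against 113 and 40, and was the only kinase called, with 31.0 ± 0.897 CPM against 10.3 ± 3.37 CPM and a log2 fold change of -1.55 (SE 0.23, FDR 3.29e-04). EIF2AK1, the heme-regulated kinase, had 4833 and 5487 fragments with vehicle against 1197 and 720 with CPI-455, with a log2 fold change of -0.79 (SE 0.11, FDR 2.59e-04). EIF2AK2, activated by double-stranded RNA, had 2819 and 2961 against 650 and 336 (log2 fold change -0.94, SE 0.12, FDR 1.15e-04). Both were lower in each CPI-455 library than in each vehicle library but under the 2-fold minimum. EIF2AK2 passed that minimum with library-total scaling (log2 fold change -1.13), without the filter (-1.10) and without CPI-455 replicate 1 (-1.03). With the length and GC trend removed EIF2AK2 was at -0.40 and EIF2AK1 at -0.42. EIF2AK4, which senses uncharged tRNA, had 2061 and 1990 fragments against 827 and 429. Its levels overlapped between the groups, at 94.1 ± 4.55 CPM and 88.8 ± 5.60 CPM (log2 fold change -0.08, SE 0.12, FDR 0.586), and the sign of this difference turned with the length and GC trend removed (0.36) and with upper-quartile scaling (0.09).

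The transcription factors of the ATF4 branch moved in opposite directions: 2 of 7 rose and 3 fell. Of protein-coding genes tested 15.6% rose and 24.4% fell. DDIT3 encodes CHOP, a factor linked to cell death under prolonged stress, and lies on chr12:57516588-57520517. It had 545 and 657 fragments in the deeper vehicle libraries and 2433 and 1084 with CPI-455, from 27.9 ± 3.02 CPM to 244 ± 41.4 CPM. This was the largest rise among the 48 genes, 8.76-fold (log2 fold change 3.13, SE 0.16, FDR 7.88e-07), and it lay between 2.92 and 3.25 when any 1 library was left out. Of the 1266 exon bases of DDIT3, 355 are shared with MARS1 on the opposite strand, and the counting, which did not use strand, left out fragments that overlap both genes. MARS1, the cytosolic methionyl-tRNA synthetase, had a log2 fold change of 0.97 (FDR 4.24e-05).

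ATF3 is a stress-induced repressor and activator of the same bZIP family. Its promoter window above, which holds a CARE, lies at the upstream end of the gene (chr1:212565334-212620777). The gene counts do not show which start site was used. ATF3 was counted 7243 and 7579 times with vehicle and 15275 and 8819 times in the CPI-455 libraries. It rose 5.02-fold, from 344 ± 2.91 CPM to 1729 ± 21.8 CPM (log2 fold change 2.33, SE 0.10, FDR 5.83e-07), and no exon base of it is shared with another gene. ATF4 itself had 13820 and 14667 fragments against 9395 and 6461, or 661 ± 12.2 CPM against 1166 ± 158 CPM. Its mRNA was 1.76-fold higher in the CPI-455 libraries, without overlap, which is under the 2-fold minimum (log2 fold change 0.82, SE 0.12, FDR 2.71e-04). The mRNA of DDIT3 per exon length was 0.0783 and 0.0890 times that of ATF4 with vehicle against 0.514 and 0.333 times with CPI-455.

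ATF5, a target and relative of ATF4 that is itself controlled by eIF2α phosphorylation, went the other way. Its 2021 and 2527 fragments with vehicle compared with 145 and 44 with CPI-455, a fall from 105 ± 14.1 CPM to 12.5 ± 5.35 CPM (log2 fold change -3.01, SE 0.24, FDR 6.64e-06). The CPI-455 libraries differed from each other for this gene, and without CPI-455 replicate 1 the log2 fold change was -3.62. ATF5 shares 626 exon bases with NUP62 on the other strand, for which the log2 fold change was -1.02. CEBPG, the C/EBP partner that binds DNA with ATF4, fell from 689 ± 0.772 CPM to 296 ± 37.0 CPM (14599 and 15071 fragments against 2404 and 1628, log2 fold change -1.22, SE 0.12, FDR 2.18e-05). CEBPB fell from 120 ± 10.9 CPM to 54.7 ± 1.53 CPM (2371 and 2790 fragments against 478 and 282, log2 fold change -1.13, SE 0.13, FDR 5.84e-05). CEBPG was not called with the length and GC trend removed (log2 fold change -0.87), and CEBPB was not called with upper-quartile scaling. NUPR1, a small chromatin-associated stress protein, had 1307 and 1566 fragments against 845 and 448 and a log2 fold change of 0.46 (SE 0.13, FDR 0.0121), below the 2-fold minimum.

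**Figure D2:**
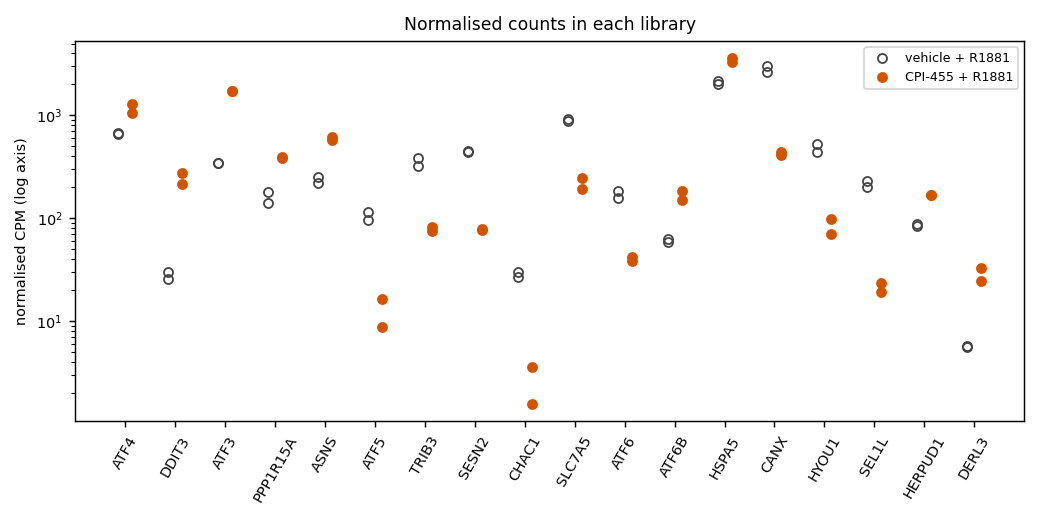
CPM of named genes in each of the 4 libraries on a log axis, with vehicle and CPI-455 libraries marked apart. DDIT3 and ATF3 sit higher in both CPI-455 libraries, and CHAC1, ATF5, SEL1L and CANX sit lower in both.

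The regulatory subunits that direct protein phosphatase 1 to eIF2α, and so end the response, were both higher in each CPI-455 library. PPP1R15A (GADD34), the inducible subunit, had 3010 and 3955 fragments with vehicle and 3551 and 1946 in the CPI-455 libraries, and rose from 161 ± 27.2 CPM to 391.7 ± 9.49 CPM (log2 fold change 1.28, SE 0.13, FDR 3.42e-05). PPP1R15B, the constitutive subunit, had 3754 and 3494 against 2177 and 1429 and was 1.56-fold higher (log2 fold change 0.64, SE 0.12, FDR 0.00138), which was called only with the length and GC trend removed (1.06).

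Of the 8 amino acid and one-carbon genes of the ATF4 branch, 1 rose (12.5%), 2 fell (25%) and 5 were not called. These shares were near those of protein-coding genes tested, 15.6% and 24.4%. ASNS, which makes asparagine from aspartate and carries a CARE in the window printed above, had 4654 and 5567 fragments with vehicle against 5144 and 3092 with CPI-455. It rose 2.51-fold, from 237 ± 24.4 CPM to 594 ± 24.4 CPM (log2 fold change 1.33, SE 0.12, FDR 1.20e-05). PSAT1, the aminotransferase of serine synthesis, moved the other way, with 14650 and 17454 fragments against 3261 and 1859 and levels of 745 ± 74.5 CPM and 367 ± 1.34 CPM. Its fall was close to the 2-fold minimum (log2 fold change -1.02, SE 0.11, FDR 4.67e-05), and it was not called when vehicle replicate 2 was left out (-0.94) or the length and GC trend was removed. The ratio of ASNS to PSAT1 mRNA per exon length was 0.156 and 0.157 with vehicle and 0.775 and 0.817 in the CPI-455 libraries.

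SLC7A5 and SLC3A2 encode the light and heavy chains of a transporter of large neutral amino acids, and their mRNAs parted. SLC7A5 had 19745 and 19148 fragments with vehicle against 2210 and 971 with CPI-455, a fall from 904 ± 40.9 CPM to 220 ± 39.5 CPM (log2 fold change -2.03, SE 0.14, FDR 2.95e-06). SLC3A2 had a log2 fold change of -0.53 (SE 0.11, FDR 0.00195) and was not called. Per exon length SLC7A5 stood at 1.83 and 1.88 times SLC3A2 with vehicle and at 0.737 and 0.568 times in the CPI-455 libraries. The remaining genes of serine and one-carbon metabolism were not called: log2 fold changes were -0.85 for SHMT2, -0.58 for MTHFD2, 0.08 for PHGDH and 0.23 for PSPH, and the sign turned for PHGDH with library-total scaling (-0.11), without the filter (-0.08) and without vehicle replicate 1 (-0.016), and for PSPH without CPI-455 replicate 2 (-0.08).

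Of the 5 feedback, redox and secreted targets of the ATF4 branch, 4 fell and none rose, against 24.4% and 15.6% of protein-coding genes tested. CHAC1, an enzyme that degrades glutathione, lies on chr15:40952962-40956519 and carries a CARE in its window. It had 636 and 594 fragments with vehicle against 14 and 18 with CPI-455, and fell 12.1-fold, the largest fall among the 48 genes (28.6 ± 2.05 CPM to 2.57 ± 1.41 CPM, log2 fold change -3.60, SE 0.32, FDR 1.42e-05). With so few fragments the size of the fall is loosely fixed, and it was -4.22 without CPI-455 replicate 2 and -3.02 at the other end of the range over left-out libraries. TRIB3, a pseudokinase that restrains ATF4 and CHOP, fell from 355 ± 48.6 CPM to 79.0 ± 5.84 CPM, with 6789 and 8525 fragments against 667 and 420 (log2 fold change -2.17, SE 0.14, FDR 2.08e-06). SESN2, a leucine-binding inhibitor of mTORC1, had 9532 and 9701 fragments against 684 and 396 and fell 5.76-fold, with replicates close together at 447 ± 5.0 CPM and 77.5 ± 1.13 CPM (log2 fold change -2.53, SE 0.11, FDR 5.83e-07).

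VLDLR, a lipoprotein receptor, was the least certain of these, with 380 and 384 fragments against 88 and 23. Its log2 fold change of -1.23 (SE 0.31, FDR 0.00708) was -0.89 without CPI-455 replicate 2, which was not called, and -1.98 without CPI-455 replicate 1, and VLDLR was not called with the length and GC trend removed (-0.72). STC2, a secreted glycoprotein, was not called (-0.65, FDR 7.23e-04). TRIB3 and CHAC1 are transcribed downstream of CHOP as well as ATF4, and each moved opposite to DDIT3. The ratio of TRIB3 to DDIT3 mRNA per exon length was 4.59 and 4.78 with vehicle and 0.101 and 0.143 in the CPI-455 libraries. For CHAC1 over DDIT3 the ratios were 0.718 and 0.556 against 0.00354 and 0.0102.

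In the ATF6/XBP1 branch 1 gene rose (5.26%), 9 fell (47.4%) and 9 were not called. Of protein-coding genes tested 15.6% rose and 24.4% fell. XBP1, the factor made active by IRE1α, had 3905 and 4313 fragments with vehicle against 967 and 669 with CPI-455, or 191 ± 8.89 CPM against 120 ± 16.9 CPM. Both CPI-455 libraries were lower, by less than 2-fold (log2 fold change -0.67, SE 0.13, FDR 0.00157). The gene counts do not separate its spliced from its unspliced mRNA.

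Of the 11 ER chaperones and folding enzymes, 5 fell and none rose, against 24.4% and 15.6% of protein-coding genes tested. HSPA5 encodes BiP, the Hsp70 of the ER whose release from the sensors starts the response, and it had the highest level per exon length of the 48 genes in both groups, at 534 RPKM and 886 RPKM. It had 42878 and 47083 fragments in the vehicle libraries and 32202 and 16752 in the shallower CPI-455 libraries, which is 2088 ± 88.8 CPM against 3463 ± 211 CPM. The difference was 1.66-fold, without overlap between groups and below the 2-fold minimum (log2 fold change 0.73, SE 0.10, FDR 2.13e-04). CANX, calnexin, the membrane-bound lectin chaperone on chr5:179678628-179730925, was the most counted of the 48 genes with vehicle and moved in the other direction. It had 56039 and 66847 fragments with vehicle and 3678 and 2204 in the CPI-455 libraries, a 6.72-fold fall from 2850 ± 288 CPM to 424 ± 16.5 CPM (log2 fold change -2.75, SE 0.12, FDR 5.83e-07). HSPA5 mRNA per exon length was 1.22 and 1.12 times that of CANX with vehicle against 13.97 and 12.1 times with CPI-455. CALR, calreticulin, the soluble partner of calnexin, was not called (log2 fold change -0.31, SE 0.11, FDR 0.0339), and its ratio to CANX went from 0.487 and 0.415 to 2.66 and 2.23.

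HYOU1, the large Hsp70-type exchange factor of BiP with paired ERSE-II elements in the window above, fell as well. Its 9355 and 11528 fragments with vehicle compared with 873 and 355 with CPI-455, or 484 ± 59.9 CPM against 84.1 ± 19.6 CPM (log2 fold change -2.51, SE 0.17, FDR 2.87e-06). The HSPA5 to HYOU1 ratio per exon length was 9.02 and 8.04 with vehicle and 72.6 and 92.9 in the CPI-455 libraries. The protein disulfide isomerases that fell were PDIA3, PDIA4 and PDIA6. PDIA6 had 7065 and 7729 fragments against 777 and 509 (log2 fold change -1.87, SE 0.12, FDR 2.42e-06), and 1033 of its 4101 exon bases are shared with ATP6V1C2 on the opposite strand. PDIA4 had 7243 and 7457 fragments against 1160 and 580, a fall from 341 ± 1.03 CPM to 122 ± 10.9 CPM (log2 fold change -1.48, SE 0.12, FDR 6.41e-06). PDIA3, which works with calnexin on glycoproteins, fell with a log2 fold change of -1.17 and was not called with the length and GC trend removed (-0.82). The other chaperone genes that were not called had log2 fold changes of -0.69 (HSP90B1), -0.54 (MANF), -0.35 (SDF2L1) and 0.29 (CRELD2), and SDF2L1 was called lower with that trend removed (-1.19).

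Of the 7 ERAD genes, 4 fell and 1 rose, against 24.4% and 15.6% of protein-coding genes tested. SEL1L, the adaptor that holds the HRD1 ubiquitin ligase complex together, on chr14:81471549-81533861, had 4244 and 5066 fragments with vehicle against 172 and 118 with CPI-455. It fell 10.2-fold, from 216 ± 21.9 CPM to 21.3 ± 2.86 CPM (log2 fold change -3.36, SE 0.15, FDR 5.92e-07). SYVN1, the HRD1 ligase itself, was not called (log2 fold change -0.70, SE 0.13, FDR 0.00106), and it shares exon bases with FAU and MRPL49. The ratio of SYVN1 to SEL1L per exon length was 0.823 and 0.730 in the vehicle libraries and 5.61 and 4.11 in the CPI-455 libraries.

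The Derlins, membrane proteins of the same complex, did not move alike. DERL1 had 2512 and 2736 fragments against 343 and 297 and fell (log2 fold change -1.35, SE 0.18, FDR 1.77e-04), and DERL2 fell with a log2 fold change of -1.10 (SE 0.15, FDR 1.64e-04). DERL3, the least abundant of them with vehicle, had 121 and 123 fragments with vehicle and 292 and 124 in the CPI-455 libraries, and rose 5.09-fold from 5.67 ± 0.0682 CPM to 28.6 ± 5.82 CPM (log2 fold change 2.35, SE 0.23, FDR 2.35e-05). Per exon length DERL3 was at 0.0899 and 0.0839 times DERL1 with vehicle against at 1.59 and 0.779 times with CPI-455. EDEM1, a mannosidase-like protein that passes glycoproteins to ERAD, had 3048 and 2917 fragments against 476 and 334 and fell (log2 fold change -1.22, SE 0.14, FDR 5.65e-05). The calls of EDEM1, DERL1 and DERL2 were lost with the length and GC trend removed (log2 fold changes -0.80, -0.88 and -0.60). HERPUD1, an ERAD scaffold whose window holds both a CARE and an ERSE-II, had 1790 and 1906 fragments against 1488 and 847. Its level of 85.8 ± 1.78 CPM with vehicle and 167 ± 0.436 CPM with CPI-455 differed by 1.95-fold, just under the minimum (log2 fold change 0.96, SE 0.11, FDR 6.37e-05), and it was called higher with that trend removed (1.39) and with upper-quartile scaling.

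The ATF4 branch and the ATF6/XBP1 branch were then set side by side. The median log2 fold change was -0.62 over the 22 ATF4-branch genes and -0.70 over the 19 ATF6/XBP1-branch genes, a difference of -0.09 that was -0.40 with the length and GC trend removed and -0.22 to -0.05 when single libraries were left out. In the ATF4 branch 4 genes rose (18.2%) and 9 fell (40.9%), and in the ATF6/XBP1 branch 1 rose (5.26%) and 9 fell (47.4%). Over all genes tested 21.0% rose and 21.3% fell, and over protein-coding genes 15.6% and 24.4%. The share of rises in the ATF4 branch was thus near that of genes in general. The spread within each branch was far wider than the distance between them, from -3.60 to 3.13 in the ATF4 branch and from -3.36 to 2.35 in the ATF6/XBP1 branch. In each library, the mean log2 CPM of the ATF6/XBP1 branch minus that of the ATF4 branch was -0.02 and -0.06 with vehicle against -0.41 and -0.39 with CPI-455. Both CPI-455 libraries thus had the lower value. Summed over genes, the ATF4 branch held 6893 and 7213 CPM with vehicle and 6904 and 7165 CPM in the CPI-455 libraries, and the ATF6/XBP1 branch 9118 and 10037 CPM against 6480 and 6256 CPM. With edgeR's scaling the ATF4 sum was thus level while its members moved apart. Sums depend on the scaling between libraries, and with library totals the ATF4-branch median was -0.81. The larger part of the ATF6/XBP1 sum was carried by CANX, which fell, and HSPA5, which was higher. These medians and sums are descriptions of lists and were not tested.

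**Figure D3:**
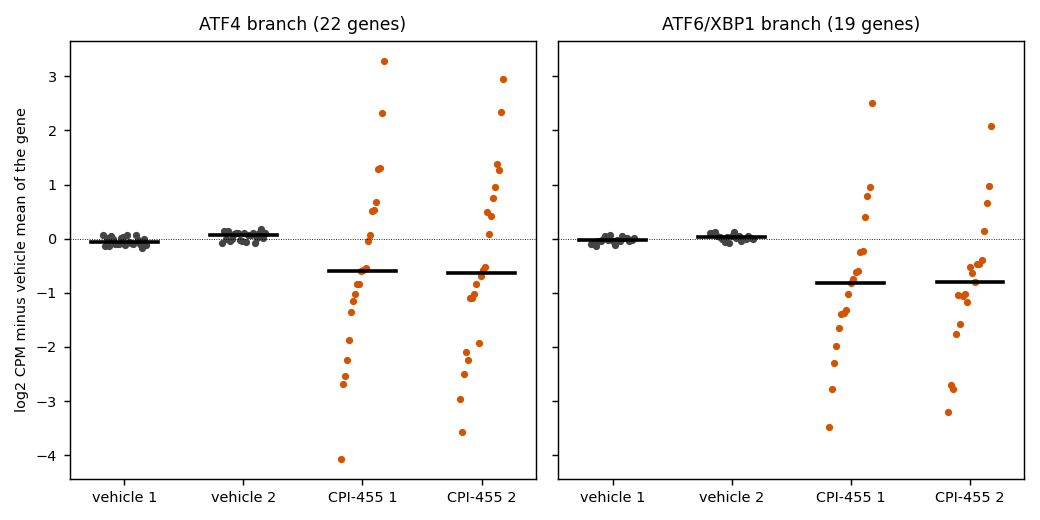
Log2 difference of each gene of the ATF4 and ATF6/XBP1 branches from its vehicle mean in each library, with the branch median. In the CPI-455 libraries the medians sit at -0.59 and -0.63 (ATF4) and at -0.81 and -0.80 (ATF6/XBP1), with genes of each branch above and below 0.

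Genes with a searched motif had fold changes on both sides of 0. The 7 genes with a CARE ranged from -3.60 (CHAC1) to 2.33 (ATF3) in log2 fold change, and 2 rose (ATF3, ASNS), 2 fell (CHAC1, CEBPG) and 3 were not called. The 10 genes with an ERSE or ERSE-II, a pair of elements found for 0.161% of all genes with a window, had a median of -0.51 and a range of -2.75 (CANX) to 0.96 (HERPUD1), with none called higher, 3 lower and 7 not called. By the same rule 21.0% of all genes tested were called higher and 21.3% lower, and 15.6% and 24.4% of protein-coding genes. A motif match is a description of the letters in these windows and does not show binding.

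**Figure D4:**
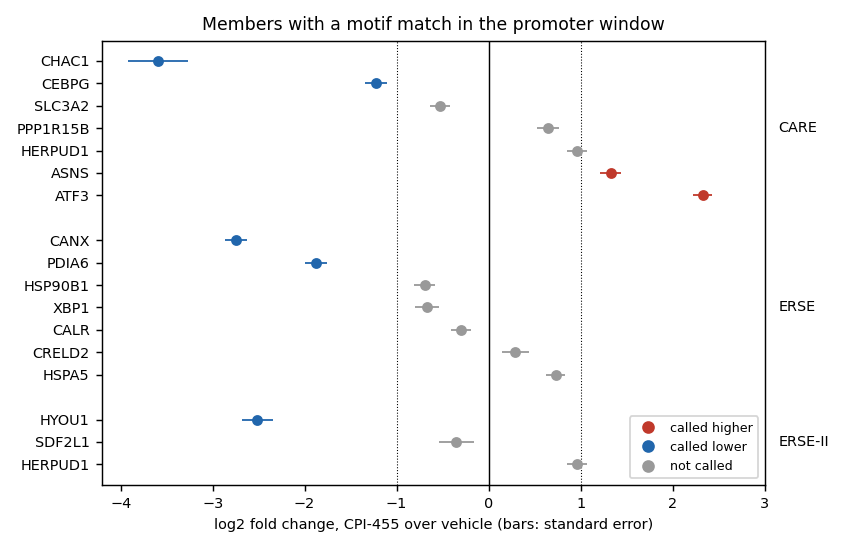
Log2 fold change (CPI-455 over vehicle) of the members with a CARE, an ERSE or an ERSE-II in the promoter window. The CARE genes lie between -3.60 and 2.33 and the ERSE and ERSE-II genes between -2.75 and 0.96.

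Other genes of the same pathways were counted in lists drawn up by role. For each list, the shares to set beside the calls are those over all genes tested, 21.0% higher and 21.3% lower. Among protein-coding genes tested they were 15.6% and 24.4%. Of 24 further ATF4 targets, 1 rose, 9 fell and 14 were not called, with a median log2 fold change of -0.73. The one that rose was CBS, the first enzyme of transsulfuration, with 520 and 563 fragments against 972 and 386 (log2 fold change 1.89, SE 0.18, FDR 1.94e-05). The strongest falls were in SLC7A1, a transporter of cationic amino acids (13193 and 14231 fragments against 1063 and 515, log2 fold change -2.52, SE 0.12, FDR 7.52e-07), and in INHBE, an activin subunit (693 and 726 against 66 and 32, log2 fold change -2.24, SE 0.20, FDR 1.51e-05).

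Of 39 further ATF6/XBP1 targets, mostly translocon, glycosylation, folding and transport genes of the ER, none rose, 18 fell and 21 were not called, with a median of -0.73 and a range of -2.99 to 0.28. HSPA13, an Hsp70 relative, fell the most (4940 and 6285 fragments against 274 and 177, log2 fold change -2.99, SE 0.15, FDR 8.40e-07). TXNDC5, a disulfide isomerase, followed (443 and 535 against 33 and 10, log2 fold change -2.91, SE 0.30, FDR 3.30e-05), although 2658 of its 4387 exon bases are shared with other genes.

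The translation factor that the kinases act on was on a list of 13 with its exchange factor eIF2B and regulators of the kinases, of which 5 rose, 2 fell and 6 were not called, with a median of 0.35. EIF2B5, the catalytic subunit of eIF2B, had 606 and 532 fragments with vehicle against 1706 and 754 with CPI-455 (log2 fold change 2.69, SE 0.16, FDR 1.61e-06). EIF2S2, the β subunit of eIF2, rose with 3911 and 4590 against 5007 and 3499 (log2 fold change 1.67, SE 0.13, FDR 7.25e-06). EIF2S1, which encodes eIF2α itself, fell, with 2966 and 3244 fragments against 525 and 307 (log2 fold change -1.27, SE 0.12, FDR 1.78e-05). The ratio of EIF2S2 to EIF2S1 mRNA per exon length was 2.81 and 3.01 with vehicle and 20.3 and 24.3 in the CPI-455 libraries. IMPACT, an inhibitor of GCN2 activation, also fell (3081 and 3491 against 437 and 331, log2 fold change -1.43, SE 0.15, FDR 4.05e-05).

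**Figure D5:**
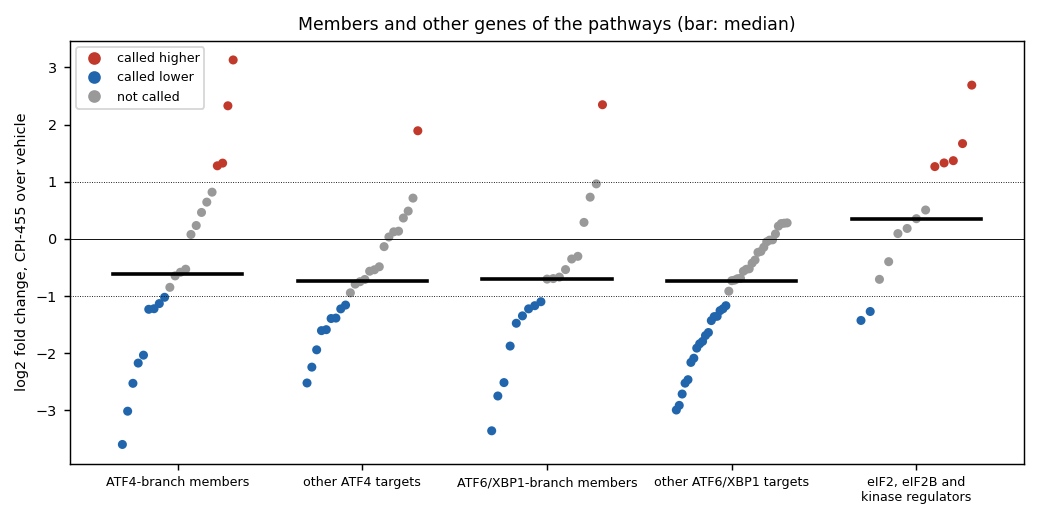
Log2 fold change (CPI-455 over vehicle) of every gene in the ATF4 branch, the ATF6/XBP1 branch and the lists of other pathway genes, with each list's median as a bar and dotted lines at the 2-fold minimum. The medians of the lists of other ATF4 and other ATF6/XBP1 targets are both -0.73, and that of the eIF2, eIF2B and kinase regulator list is 0.35.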

How the data were processed

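RNA-seq was analysed from 4 LNCaP libraries, grouped and numbered by the sample titles. The deposited values were raw counts of fragments per gene, made by the authors with TrimGalore, STAR on GRCh38 and featureCounts v1.5.0-p1 on Ensembl release 83 (file headers and methods), without strand and without fragments that overlap several genes. The vehicle's DMSO content differs between the labels and the methods and is not given here. Counts were normalized with TMM and tested in edgeR 4.0.16 (R 4.3.3) with glmQLFit and glmQLFTest after filterByExpr at a minimum of 10 counts, without covariates, on all genes. p-values were adjusted by Benjamini-Hochberg over all 17600 genes tested, and calls needed an FDR below 0.05 with at least a 2-fold difference. CPM are normalized, and RPKM divides them by the exon length in the files. Gene types came from GENCODE 44 and promoter windows from RefSeq.

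The 48 genes, their branches and all lists were chosen with earlier results of these data known. Named with counts in every library were all sensors, ATF4-branch transcription factors, XBP1 and phosphatase subunits, and in each other role group the 4 called genes with the largest change and the gene with the highest RPKM. From each list of other pathway genes the 2 largest called changes in each direction were named. Genes outside the rule (PDIA3, CALR, DERL2, SYVN1, SLC3A2, MARS1 and the rest given by value) were named after their values were seen. Alternatives were RLE, upper-quartile and library-total scaling, no mitochondrial genes or MALAT1, no filter, at least 10 counts in every library, DESeq2 1.42.0, the likelihood ratio test, a test against 2-fold, a replicate block, a fit with the exons' length and GC effect smoothed out (mgcv 1.9.3), and each library left out. The main test alone was run on simulated counts in which few genes changed, equally in both directions. That run does not check the scaling where as many genes change as here, nor the other steps. The floor, the level given above for a small fixed number of fragments, follows from library totals alone. Standard errors come from the quasi-likelihood fit and SDs from the replicates of a group, so both include the spread between libraries. Neither covers variation beyond these libraries. Some markers of the cell line are not reported here.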

Additional observations from a re-analysis of the deposited data

How the results depend on the processing

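Over 16 alternatives for 34 named genes, 510 of 544 values kept their direction and side of the threshold, 22 lost the call, 9 gained it and 3 changed sign. Among these 34 the sign changed for EIF2AK4, which was not called (0.095 with upper-quartile scaling, 0.36 with the length and GC trend removed and 0.35 with that trend and the replicate block). Among the other members PHGDH and PSPH, not called either, changed sign in 3 settings and 1. The numbers of genes called higher and lower were 6 and 21, against 7 and 17 with upper-quartile scaling, 6 and 23 with library totals or no filter, 8 and 14 with the trend removed and 6 and 14 against a 2-fold null. The ATF4-branch median of -0.62 was -0.44 with upper-quartile scaling, -0.81 with library totals, -0.77 without the filter and -0.40 with the trend removed, with or without the block. The ATF6/XBP1-branch median of -0.70 was -0.53, -0.89 and -0.86 in the first 3 of these, -0.66 with 10 counts required in every library, -0.75 in DESeq2 and -0.80 with the trend removed, with or without the block. Their difference of -0.09 was -0.40 with the trend removed, with or without the block. The median of all genes was -0.04 by TMM, 0.14 with upper-quartile scaling, -0.23 with library totals, -0.41 without the filter and 0.18 in DESeq2. Without single libraries, the lone sample of a group being assumed to vary like the other group, the medians were -0.67 to -0.64 and -0.86 to -0.71 and the difference -0.22 to -0.047. The cause of these shifts was not tested. Replicate numbers are shared by the groups, and nothing in the labels says that they pair samples, so the main fit had no replicate block. Deviations of same-numbered samples correlated at 0.040 across genes, which with 2 samples in each group cannot decide whether they were paired. With the replicate block the medians were -0.61 and -0.71, their difference -0.09, and 6 and 21 genes were called.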
